A study of Homo sapiens with 9 samples.

Results

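Genes of DNA repair and of the damage checkpoint were described in BT-549 cells given a miR-150-5p mimic. The members were taken by symbol: every array feature with a single platform symbol of the RAD, XRCC, FANC, MSH, MLH, PMS, ERCC, PARP and CHEK families, or of a set of named repair genes. That gave 38 of the 14884 genes with a symbol, measured by 40 features, with the brightest feature standing for CHEK2 and MSH5, which had 2 each. The rule covers FANC symbols too, but none is among the 38. Those genes were not analysed here, and the set is called repair genes below. The Fanconi anemia pathway was represented by BRIP1, PALB2, RAD51C and XRCC2, genes in which inherited defects can cause that disease.

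BT-549 is a human breast cancer cell line of the triple-negative class, grown in medium with 10% serum. Cells of the 3 groups received 50 nM miR-150-5p mimic (a synthetic mature microRNA), 50 nM of a non-specific negative control RNA, or the lipid Lipofectamine RNAiMAX without RNA (mock), so all groups were exposed to the lipid. The medium was changed at 24 h in all groups. Total RNA was taken at 72 h and read on 9 whole-transcript arrays, 3 per group, as log2 signals. Whether replicates came from separate cultures is not stated, so the p-values rest on a spread that may be technical.

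ESR1, PGR and EPCAM, the genes of the hormone receptors and of an epithelial surface protein, read at most 2.37 on every array, against array medians of 2.43 to 2.48 over all features. The mesenchymal genes VIM, FN1 and ZEB1 read 6.67 to 9.48. Of the epithelial keratin genes, KRT18 read 7.31 to 7.75 and KRT8 3.44 to 4.27. CD14, PECAM1, VWF and ALB, of blood, vessel and liver cells, read 1.79 to 2.80. Arrays correlated over all features (not independent replicates) at a Pearson's r of 0.981 to 0.989 within groups, and of 0.977 to 0.986 between groups.

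Cells repair broken and mispaired DNA by several routes. Homologous recombination copies an intact sister strand, end joining ligates broken ends, mismatch repair removes copying errors, and excision repair replaces damaged bases. Several of these genes, EXO1 among them, are known E2F targets transcribed most around S phase. In bulk RNA, a changed share of cells in S phase and a changed RNA level per cell cannot be told apart.

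The promoter windows of the 5 repair genes that changed are shown so that their start regions can be read beside the values. Each holds 300 bases from RefSeq (GRCh38.p14), from 250 bases before a transcript start of the RefSeq window table onward, written 5′ to 3′ on the strand of the gene, with the most upstream of the table's windows taken where a gene had several. For EXO1 the RefSeq gene table sets the gene's first base further upstream, within the window shown. Capitals mark an E2F-type word (TTTCCCGC, TTTCGCGC, TTTGCCGC or TTTGGCGC) or a word of the cell cycle homology region (TTTGAA or TTCGAA), searched on both strands. The windows are EXO1 at chr1:241847954-241848253 (plus strand), XRCC2 at chr7:152676092-152676391 (minus strand), XRCC1 at chr19:43575478-43575777 (minus strand), MSH5 at chr6:31739755-31740054 (plus strand) and RAD23B at chr9:107283029-107283328 (plus strand).
EXO1: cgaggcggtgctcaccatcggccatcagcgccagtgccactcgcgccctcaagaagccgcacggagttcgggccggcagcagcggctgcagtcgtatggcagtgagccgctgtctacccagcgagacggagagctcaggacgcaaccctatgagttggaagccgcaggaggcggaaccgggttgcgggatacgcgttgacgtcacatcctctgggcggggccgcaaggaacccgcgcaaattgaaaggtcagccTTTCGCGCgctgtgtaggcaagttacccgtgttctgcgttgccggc
XRCC2: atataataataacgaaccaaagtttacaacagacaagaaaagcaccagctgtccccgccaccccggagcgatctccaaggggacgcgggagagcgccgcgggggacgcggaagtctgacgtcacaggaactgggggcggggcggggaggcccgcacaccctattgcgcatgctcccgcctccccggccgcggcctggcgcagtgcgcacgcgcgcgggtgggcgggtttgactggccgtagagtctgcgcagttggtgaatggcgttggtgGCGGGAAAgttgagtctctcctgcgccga
XRCC1: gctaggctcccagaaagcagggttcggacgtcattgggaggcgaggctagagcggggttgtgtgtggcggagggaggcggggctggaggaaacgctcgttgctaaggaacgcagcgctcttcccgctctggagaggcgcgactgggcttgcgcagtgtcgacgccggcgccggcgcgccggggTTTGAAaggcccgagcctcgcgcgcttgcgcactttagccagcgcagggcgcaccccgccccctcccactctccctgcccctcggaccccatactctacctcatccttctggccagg
MSH5: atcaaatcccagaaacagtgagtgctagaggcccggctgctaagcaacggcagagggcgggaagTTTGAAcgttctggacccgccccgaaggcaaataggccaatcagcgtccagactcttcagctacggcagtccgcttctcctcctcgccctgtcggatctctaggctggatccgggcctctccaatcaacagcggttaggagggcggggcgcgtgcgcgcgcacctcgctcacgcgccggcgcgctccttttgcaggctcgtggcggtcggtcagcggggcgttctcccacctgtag
RAD23B: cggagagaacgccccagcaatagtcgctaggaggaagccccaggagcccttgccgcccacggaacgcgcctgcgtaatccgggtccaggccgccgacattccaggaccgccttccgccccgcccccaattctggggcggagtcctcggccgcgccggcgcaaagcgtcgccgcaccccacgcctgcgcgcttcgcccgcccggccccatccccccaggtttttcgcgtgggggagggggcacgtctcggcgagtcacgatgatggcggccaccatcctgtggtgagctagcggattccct

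EXO1 held TTTCGCGC, beginning 4 bases downstream of the start on which its window was set, and XRCC2 held TTTCCCGC on the opposite strand, 21 bases downstream. XRCC1 and MSH5 held TTTGAA, and the RAD23B window held neither kind of word. A window was found for 34 of the 38 repair genes, and 7 of the 34 had an E2F-type word in at least 1 window (20.6%), against 5.38% of the 10749 array genes with a window. The 7 were EXO1, MSH3, MSH6, PMS2, UNG, XRCC2 and XRCC6. The cell cycle words stood in 7 of 34 as well (20.6%, against 17% of array genes). Over all 35116 windows the shares were 3.31% and 16.4%. Such matches describe letters and are not evidence of binding.

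In mimic samples EXO1, XRCC2 and XRCC1 rose and MSH5 fell against the negative control, and against mock EXO1, XRCC2 and XRCC1 rose and MSH5 and RAD23B fell. The other members did not pass in either comparison, although most lay above 0. In limma fits over all 14884 genes with Benjamini and Hochberg adjustment (called at adjusted p under 0.05), 4 of 38 repair genes (10.5%) changed against the negative control, where 3.18% of all genes did. Of them 3 rose, against a background of 1.76% of genes rising, and 1 fell, against 1.42%. Against mock 5 of 38 changed (13.2%), beside 3.9% of all genes, with 3 rising (2.28% of all genes) and 2 falling (1.62%). Among genes of at least median signal, fewer were tested but more were called, 594 against the negative control and 818 against mock. The background share is thus higher among brighter genes. Of the 33 repair genes in that set, 4 and 7 passed. As 33 of the 38 were this bright, 3.18% and 3.9% of all genes are too low a background for them. Both comparisons use the same mimic arrays, so they are not independent.

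Counts without adjustment were broader. Against the negative control 11 of 38 repair genes had an unadjusted p under 0.05 (28.9%), where 16% of all genes did, and against mock 16 did (42.1%, beside 17.5%). All 3 mimic arrays lay above all 3 negative control arrays for 9 members (23.7%, beside 10.3% of all genes) and below them for 3 (7.89%, beside 8.3%). Set against the mock arrays, the mimic arrays lay apart and higher for 15 members (39.5%, beside 11.7%) and lower for 3 (7.89%, beside 8.52%). The median log2 change of the 38 was 0.12 against the negative control and 0.17 against mock, with medians over all genes of -0.0044 and 0.00035. Over 19 other settings of processing or arrays, the medians of the 38 ran from 0.063 to 0.18 and from 0.10 to 0.20. Above 0 lay 28 and 27 of the 38, beside 48.6% and 50.1% of all genes. With any 1 of the 9 arrays left out, 0 to 4 repair genes passed against the negative control and 2 to 5 against mock.

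**Figure D1:**
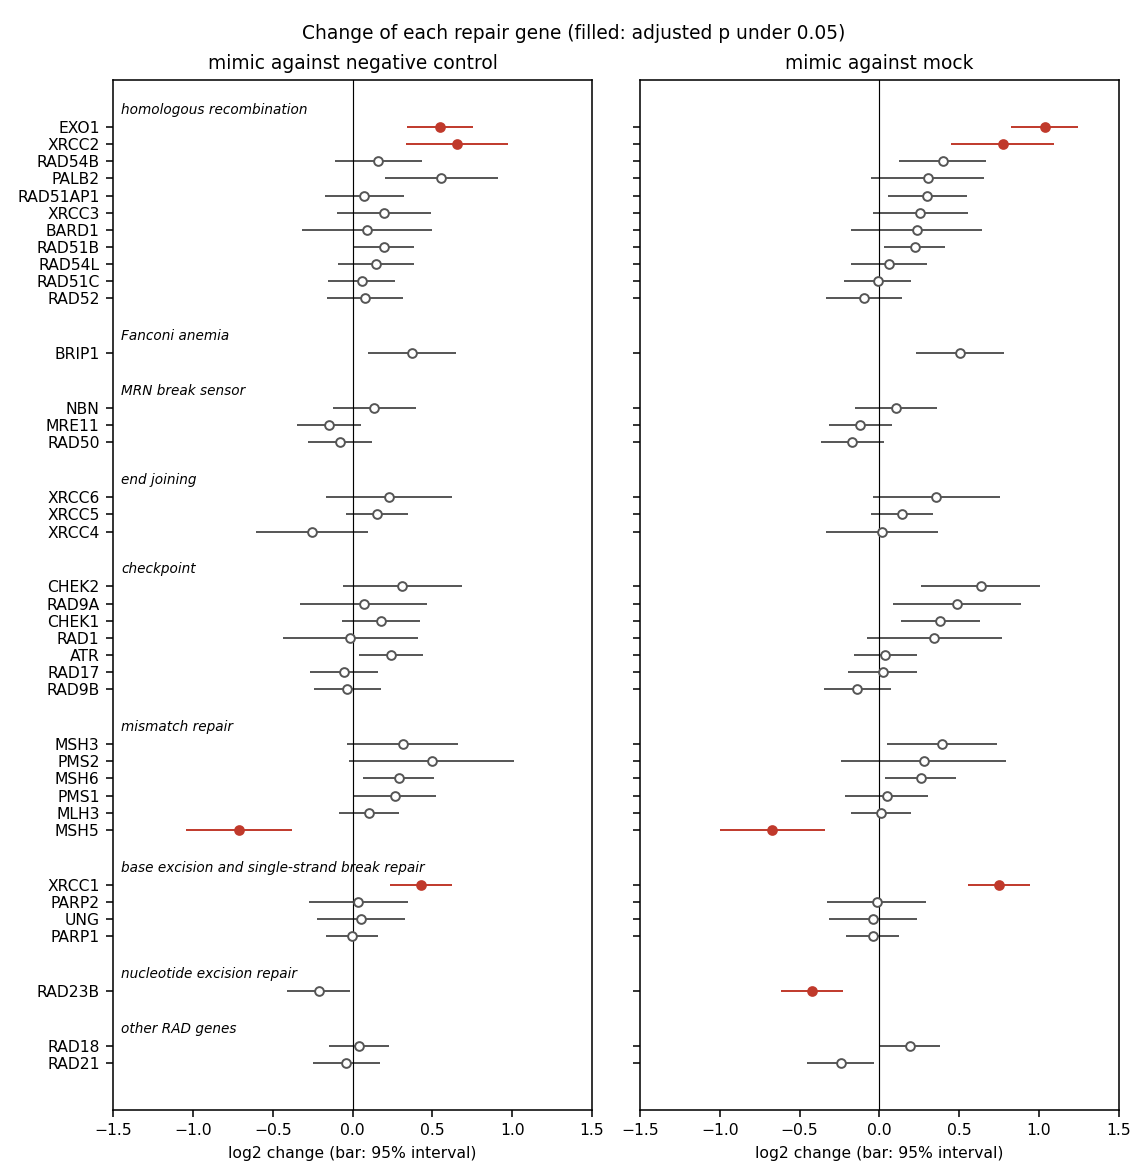
Log2 change of each of the 38 repair genes, by role, in the mimic against the negative control (left) and against mock (right); points are limma estimates, bars are 95% intervals, and filled red points have an adjusted p under 0.05. EXO1, XRCC2 and XRCC1 are filled to the right of 0 and MSH5 to the left in both panels, and RAD23B is filled in the right panel alone.

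Homologous recombination genes held the largest rise among the 38 in each comparison, XRCC2 against the negative control and EXO1 against mock. EXO1 encodes an exonuclease that resects DNA ends and also acts in mismatch repair. It read 6.60, 6.44 and 6.30 on the mimic arrays, 5.94, 5.93 and 5.84 on the negative control arrays and 5.45, 5.46 and 5.33 on the mock arrays. The 3 groups did not overlap, with mimic highest and mock lowest. Such an upward order of all 9 arrays was found in 2 of the 38 repair genes, EXO1 and XRCC1, and in 0.564% of all genes. EXO1 rose by 1.04 ± 0.093 (log2 ± SE) against mock, a 2.05-fold difference with an adjusted p of 0.00080, which held with each array left out in turn. Against the negative control it rose by 0.55 ± 0.093 (1.46-fold, adjusted p = 0.015). This second call was lost without mimic 1, mimic 2 or negative control 3, at an adjusted p of up to 0.060.

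XRCC2 encodes a protein needed for homologous recombination. Its signals were 5.82, 5.55 and 5.48 in mimic, 4.70, 5.15 and 5.04 in negative control and 4.71, 4.79 and 5.04 in mock samples. The mimic arrays stood above all 6 control arrays, which overlapped each other. The rise was 0.65 ± 0.14 against the negative control (1.57-fold, adjusted p = 0.042) and 0.77 ± 0.14 against mock (1.71-fold, adjusted p = 0.020). The first call was lost in 11 of 19 settings, among them a further quantile normalization (adjusted p = 0.056) and leaving out any single mimic array, negative control 1 or 3, or mock 1 or 2 (up to 0.14). The second was lost in 6 of 19, among them without mimic 1 or 2 or mock 1 or 2 (up to 0.085).

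**Figure D2:**
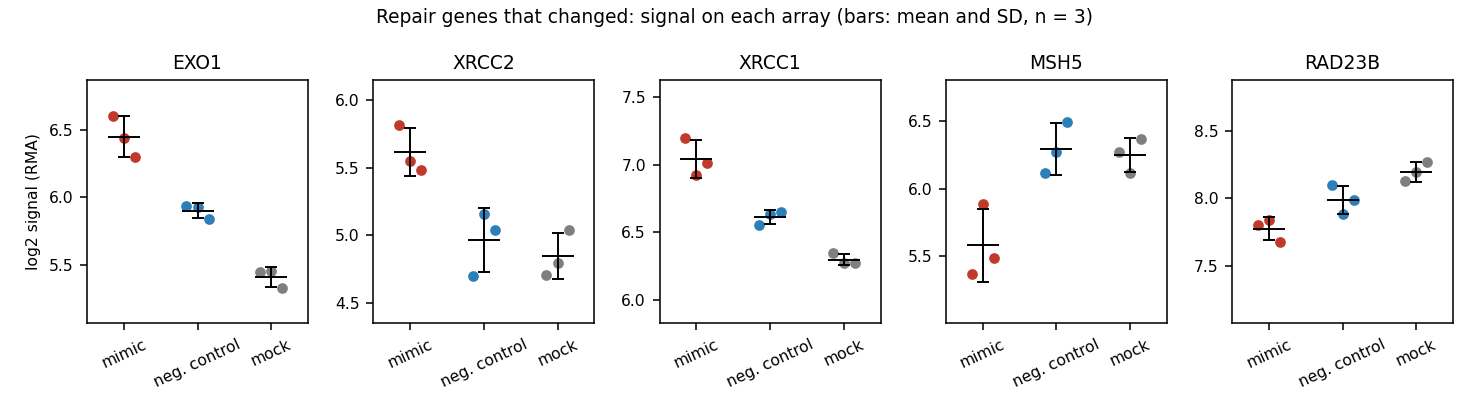
Log2 signal on each array for the 5 repair genes that changed, with mimic, negative control and mock from left to right; points are arrays, and the bars are the mean and SD of 3 arrays, on axes of equal span. EXO1 and XRCC1 step down over 3 separate groups, RAD23B steps up, and in XRCC2 and MSH5 the mimic arrays stand apart from 2 overlapping control groups.

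None of the other 9 recombination genes passed in either comparison. PALB2, a scaffold that brings the recombination machinery to breaks, read 5.97, 5.88 and 5.62 in mimic, 5.28, 5.53 and 5.00 in negative control and 5.75, 5.33 and 5.48 in mock samples. It lay above every negative control array (0.56 ± 0.16, adjusted p = 0.10) and overlapped mock. RAD54B, a DNA translocase of recombination, read 6.81, 6.67 and 6.50 in mimic and 6.48, 6.28 and 6.03 in mock samples (0.40 ± 0.12, adjusted p = 0.11). Its 3 negative control values and that of mimic 3 were all 6.50 and identical as deposited. RAD51B, also a recombination gene, read 2.67, 2.55 and 2.59 in mimic and 2.42, 2.43 and 2.38 in negative control samples, close to the median of all features (0.20 ± 0.085, adjusted p = 0.30). All 11 recombination genes had a change above 0 against the negative control, from 0.057 to 0.65 with a median of 0.16. Against mock 9 of 11 did, with RAD52 at the low end (-0.098) and a median of 0.26.

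BRIP1, a helicase also known as a Fanconi anemia gene, did not pass. It read 5.65, 5.71 and 5.57 in mimic, 5.36, 5.34 and 5.12 in negative control and 4.90, 5.38 and 5.14 in mock samples. The mimic arrays lay above all control arrays. The difference was 0.37 ± 0.12 against the negative control (adjusted p = 0.17) and 0.50 ± 0.12 against mock (adjusted p = 0.057). The difference from mock passed with median centring, the signal filter, array weights, or without mock 2 (alone or with negative control 2), and its adjusted p ran from 0.029 to 0.17 over 19 settings.

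Of 4 genes of base excision and single-strand break repair, XRCC1 alone passed. XRCC1 is the scaffold on which nick-sealing enzymes assemble. Its signals were 7.20, 6.92 and 7.02 on mimic arrays, 6.56, 6.64 and 6.65 on negative control arrays and 6.34, 6.27 and 6.27 on mock arrays. The groups did not overlap, in the order seen for EXO1. XRCC1 rose by 0.75 ± 0.087 against mock (1.68-fold, adjusted p = 0.0027), with each array left out in turn as well. Against the negative control it rose by 0.43 ± 0.087 (1.35-fold, adjusted p = 0.032). That call was lost in 11 of 19 settings, among them a further quantile normalization (adjusted p = 0.068), the variance trend (0.052), and leaving out mimic 1 or 3, any single negative control array or mock 1 (up to 0.10). The 5′ end of XRCC1 overlaps the locus PINLYP in the RefSeq gene table.

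The other 3 members of that role, PARP1, PARP2 and UNG, had small estimated changes. PARP1, which senses nicks, read 7.16 to 7.22 in mimic, 7.19 to 7.20 in negative control and 7.18 to 7.33 in mock samples, and its change against mock was -0.043 with a 95% interval from -0.21 to 0.12. For PARP2, its relative, the change against the negative control was 0.035 (-0.28 to 0.34). UNG, which removes uracil from DNA, had 0.055 (-0.22 to 0.33) in that comparison. The 3 intervals span 0, and the mimic arrays overlapped both control groups in all 3 genes. Base excision genes outside the symbol rule did not all lie so close to 0. Against the negative control NEIL1 was at 0.70 ± 0.19 and NEIL2 at -0.12 ± 0.12, and neither passed.

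Among 6 mismatch repair genes MSH5 fell and the others lay above 0 in both comparisons. MSH5 belongs to the family by sequence, but its known role is in meiotic crossing over. It read 5.37, 5.89 and 5.49 in mimic samples, 6.12, 6.27 and 6.49 in negative control samples and 6.28, 6.12 and 6.37 in mock samples. The 3 mimic arrays were lowest, and the control groups overlapped. MSH5 fell by 0.71 log2 units below the negative control (1.64-fold lower, SE 0.15, adjusted p = 0.034) and by 0.67 below mock (1.59-fold lower, SE 0.15, adjusted p = 0.039). Its dimmer feature gave -0.66 ± 0.20 and -0.50 ± 0.20. With the mean of both features neither call held (adjusted p = 0.055 and 0.084). The call against the negative control was also lost without mimic 1 or 3, any single negative control array or mock 1, at up to 0.12, and the call against mock without mimic 1 or 3, negative control 1 or any single mock array, at up to 0.14. Each was lost in 10 of 19 settings. The gene overlaps the readthrough locus MSH5-SAPCD1 and SAPCD1 in the RefSeq gene table, whose transcripts the features may share.

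No other mismatch repair gene passed. MSH6, part of the complex that recognises single mispairs, read 6.27, 5.97 and 6.23 in mimic and 5.98, 5.82 and 5.81 in negative control samples, with mimic 2 just below negative control 1 (0.29 ± 0.099, adjusted p = 0.18). MSH3, its counterpart for small loops, averaged 6.52 ± 0.12 in mimic, 6.21 ± 0.29 in negative control and 6.13 ± 0.20 in mock samples (SD, n = 3 each). Its differences were 0.32 ± 0.15 against the negative control and 0.39 ± 0.15 against mock (adjusted p = 0.37 and 0.22). PMS2, an endonuclease subunit with many near-identical pseudogenes that may share its probes, averaged 5.60 ± 0.20 in mimic and 5.11 ± 0.12 in negative control samples (0.50 ± 0.23, adjusted p = 0.33), and its mock arrays spread from 4.74 to 5.81.

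**Figure D3:**
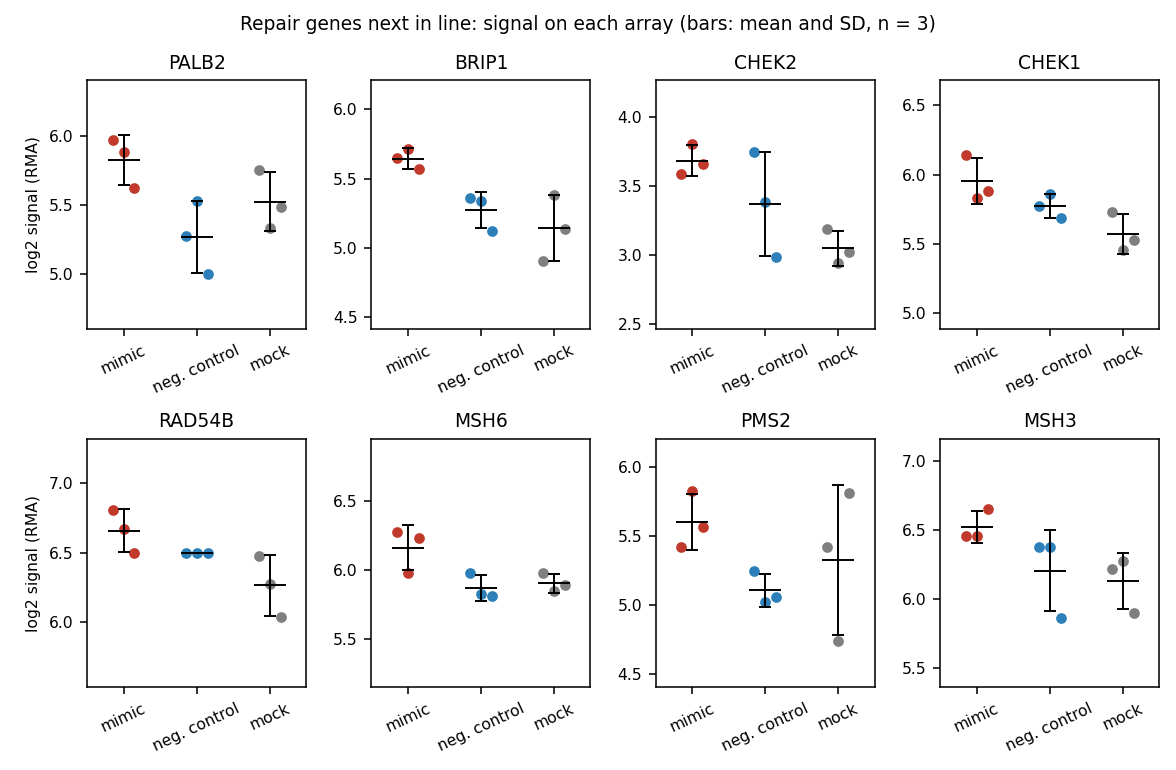
Log2 signal on each array for 8 repair genes that did not pass, chosen after their values were seen, with mimic, negative control and mock from left to right; points are arrays, bars are the mean and SD of 3 arrays, and all panels span the same number of log2 units. The mimic arrays of BRIP1 lie above all control arrays, those of PALB2, PMS2 and MSH3 above the negative control arrays, those of MSH6 overlap both control groups, and those of CHEK1, CHEK2, RAD54B, BRIP1 and MSH3 above the mock arrays.

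RAD23B was the member of nucleotide excision repair, where it stabilises the protein that finds distorted DNA. It read 7.81, 7.84 and 7.68 in mimic, 8.10, 7.88 and 7.99 in negative control and 8.13, 8.19 and 8.27 in mock samples. The 3 groups did not overlap, and mimic was lowest. RAD23B fell by 0.42 against mock (1.34-fold lower, SE 0.087, adjusted p = 0.032). The difference from the negative control, -0.21 ± 0.087, did not pass (adjusted p = 0.27). The call against mock was lost without any single mimic or mock array or negative control 3, at an adjusted p of up to 0.099, and in 10 of 19 settings in all.

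Of 7 checkpoint genes 0 passed in limma in either comparison. Against the negative control 1 had an unadjusted p under 0.05 (14.3%, beside 16% of all genes, so at the background). Against mock 3 did (42.9%, beside 17.5%). CHEK2, a kinase activated by double-strand breaks, read 3.59, 3.80 and 3.66 in mimic, 3.74, 3.38 and 2.99 in negative control and 3.18, 2.94 and 3.02 in mock samples. Its mimic arrays lay above mock (0.63 ± 0.17, adjusted p = 0.070) but not above negative control 1. That difference passed without negative control 1 or 3, with the signal filter and in a fit on the 6 arrays compared, and its adjusted p ran from 0.031 to 0.20 over 19 settings. The other feature of CHEK2 gave 0.19 ± 0.068, and pseudogenes of CHEK2 may share its probes. CHEK1, the kinase of the replication checkpoint, averaged 5.95 ± 0.17 in mimic, 5.77 ± 0.085 in negative control and 5.57 ± 0.14 in mock samples (SD, n = 3 each), 0.38 ± 0.11 above mock (adjusted p = 0.092).

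The clamp genes RAD9A and RAD1, whose products form a ring at damaged DNA, spread more in the mimic group (SD 0.37 and 0.44) than in mock (0.21 and 0.13). RAD9A read 5.75, 5.10 and 5.13 in mimic and 4.83, 4.64 and 5.05 in mock samples (0.49 ± 0.18, adjusted p = 0.19). RAD1 read 5.05, 4.40 and 5.23 in mimic and 4.41, 4.57 and 4.66 in mock samples (0.34 ± 0.19, adjusted p = 0.40), and passed only without mimic 2 (adjusted p = 0.049, and up to 0.74 over 19 settings). ATR, the kinase above CHEK1, averaged 7.10 ± 0.039 in mimic, 6.85 ± 0.054 in negative control and 7.06 ± 0.14 in mock samples (SD, n = 3 each). It lay 0.24 ± 0.088 above the negative control (adjusted p = 0.21) and overlapped mock.

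The break sensors and end joining genes did not pass either. MRE11, RAD50 and NBN form the complex that first binds broken ends. MRE11 was at -0.15 ± 0.089 and NBN at 0.14 ± 0.12 against the negative control, and RAD50 at -0.17 ± 0.089 against mock (adjusted p = 0.48, 0.63 and 0.37). XRCC5 and XRCC6 encode the Ku ring that holds ends for ligation. XRCC5 lay at 0.15 ± 0.087 and XRCC4, a ligase partner, at -0.25 ± 0.16 against the negative control (adjusted p = 0.45 and 0.49). XRCC6 lay at 0.36 ± 0.18 against mock (adjusted p = 0.34). RAD18, a ubiquitin ligase of damage bypass, averaged 7.83 ± 0.089 in mimic and 7.64 ± 0.070 in mock samples (SD, n = 3 each). RAD21, a cohesin subunit, averaged 5.41 ± 0.059 in mimic and 5.65 ± 0.14 in mock samples. Their changes against mock were 0.19 ± 0.084 and -0.24 ± 0.094 (adjusted p = 0.27 and 0.21).

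The negative control RNA was set against mock to see what a non-specific RNA adds to the lipid alone. In limma 0 of the 38 repair genes changed, with 5 at an unadjusted p under 0.05 (13.2%, beside 11% of all genes), and 0.645% of all genes were called. With the replicate number as a block 0 members were called too, and 61 genes in all in place of 96. EXO1 came nearest, at 0.49 ± 0.093 (1.40-fold, adjusted p = 0.058), followed by XRCC1 at 0.32 ± 0.087 (adjusted p = 0.18). EXO1 passed after a further quantile normalization (adjusted p = 0.0498) and among genes of at least median signal (adjusted p = 0.047), with up to 0.18 over 19 settings. RAD9A was at 0.42 ± 0.18, RAD1 at 0.36 ± 0.19, RAD54B at 0.23 ± 0.12, RAD18 at 0.15 ± 0.084 and RAD23B at -0.21 ± 0.087, with adjusted p-values from 0.42 to 0.57. XRCC2 (0.12 ± 0.14) and MSH5 (0.041 ± 0.15) had intervals from -0.20 to 0.44 and from -0.29 to 0.37.

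The negative control arrays lay above mock for 6 members (15.8%, beside 6.21% of all genes) and below for 1, RAD23B (2.63%, beside 5.78%). The 6 were EXO1, XRCC1, RAD9A, RAD1, RAD54B and RAD18. The median change of the 38 was 0.027, with 20 above 0 and 18 below, beside 52.1% of all genes above 0. Group means fell in the order mimic, negative control, mock for 15 of the 38, beside 19.03% of all genes, and in the reverse order for 5, beside 18.2%. These comparisons share arrays with those of the mimic.

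Repair and checkpoint genes outside the symbol rule were taken from a list of general knowledge, of which 61 were measured. Against the negative control 2 rose, 0 fell and 59 did not pass, and against mock 4 rose, 0 fell and 57 did not pass. The called shares were 3.28% and 6.56%, beside 3.18% and 3.9% of all genes, so the first is at the background. GEN1, which cuts recombination intermediates, read 5.07, 5.25 and 4.81 in mimic, 4.07, 3.99 and 3.91 in negative control and 4.41, 4.17 and 4.09 in mock samples. The mimic arrays stood above all control arrays. It rose by 1.06 ± 0.13 against the negative control (2.08-fold, adjusted p = 0.0031) and by 0.82 ± 0.13 against mock (1.77-fold, adjusted p = 0.0093), and both calls held with each array left out.

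RIF1, which shields broken ends from resection, read 7.33, 7.31 and 7.24 in mimic, 6.85, 6.52 and 6.71 in negative control and 7.09, 7.06 and 7.07 in mock samples. The negative control arrays were lowest and the mimic arrays highest. RIF1 rose by 0.60 ± 0.092 against the negative control (adjusted p = 0.0097) and was at 0.22 ± 0.092 against mock (adjusted p = 0.25). CLSPN, the adaptor through which ATR activates CHEK1, averaged 6.33 ± 0.16 in mimic, 5.81 ± 0.24 in negative control and 5.39 ± 0.25 in mock samples (SD, n = 3 each). It rose by 0.94 ± 0.16 against mock (adjusted p = 0.014, and 0.054 at most without mimic 1 or 2).

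WDR48 (0.75 ± 0.17), a partner of the USP1 enzyme that reverses Fanconi ubiquitin marks, and PARPBP (0.64 ± 0.13), an inhibitor of recombination, also rose against mock (adjusted p = 0.045 and 0.029). WDR48 lost its call without any single mimic array, negative control 1 or 2 or mock 1 or 2, at up to 0.16, and PARPBP without mimic 1 or 3, negative control 1 or mock 1 or 3, at up to 0.11. The median change of the 61 was 0.057 against the negative control and 0.12 against mock, with 39 and 48 above 0.

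**Figure D4:**
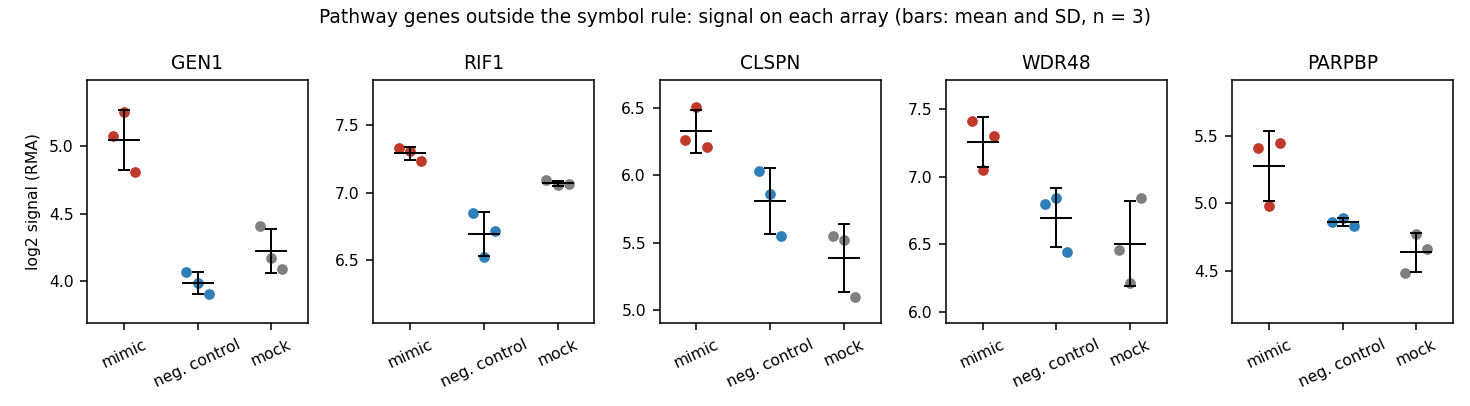
Log2 signal on each array for the 5 called genes of the pathway list outside the symbol rule, with mimic, negative control and mock from left to right; points are arrays, bars are the mean and SD of 3 arrays, and all axes have the same span. The mimic arrays of GEN1 read 4.81 to 5.25, above all control arrays at 3.91 to 4.41, and the negative control arrays of RIF1 lie below mock.

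Some markers of dividing cells also rose in mimic samples. Of 19 measured proliferation markers 6 rose and 0 fell against the negative control, and 8 rose and 0 fell against mock (31.6% and 42.1%, beside 1.76% and 2.28% of all genes that rose), with median changes of 0.30 and 0.50. The 6 were MCM2, MCM3, MCM4, MCM6, CDC6 and CCNE2, genes of replication licensing and S phase entry. The other 13 did not pass against the negative control. Among them were the licensing genes MCM7 (0.69) and MCM5 (0.53). The mitotic markers CCNB1 (0.30), BUB1 (0.22), PLK1 (0.15), MKI67 (0.11), CDK1 (0.11), AURKB (0.022) and AURKA (-0.093) were among them too. Their adjusted p-values in limma ran from 0.081 for MCM7 to 0.97 for AURKB. Against mock PLK1, a mitotic kinase gene, was among the 8 (0.60 ± 0.087, adjusted p = 0.0073). The mimic arrays of CCNB1 (0.58), BUB1 (0.50), AURKB (0.50), TOP2A (0.39), AURKA (0.27) and MKI67 (0.25) also lay above all mock arrays, without passing. Those of CDK1 and KIF11 overlapped mock. The mean signal of the 19 markers was 7.42 ± 0.11 in mimic, 7.05 ± 0.17 in negative control and 6.90 ± 0.081 in mock samples (SD, n = 3 each). On the arrays of these groups it lay between 7.33 and 7.55, between 6.89 and 7.23 and between 6.83 and 6.99. The mean of the 38 repair genes was 5.62 ± 0.056 in mimic, 5.49 ± 0.078 in negative control and 5.45 ± 0.035 in mock samples. Both lists had the same order of groups, and mimic stood above every control array in each.

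CCNE2, a cyclin of S phase entry, was 1.10 ± 0.19 higher in mimic than in negative control samples, and TYMS, a thymidylate enzyme of S phase, was at -0.42 ± 0.17 against mock without passing (adjusted p = 0.24). The part of cell division in the repair gene changes was not tested. Small nucleolar and Cajal body RNAs averaged 6.38 ± 0.40 in mimic, 6.20 ± 0.54 in negative control and 6.01 ± 0.67 in mock samples, with mock 2 and negative control 2 highest in their groups. With that mean as a covariate the counts of changed repair genes were again 4 and 5. Of all genes, 671 and 696 were then called, in place of 473 and 580.

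**Figure D5:**
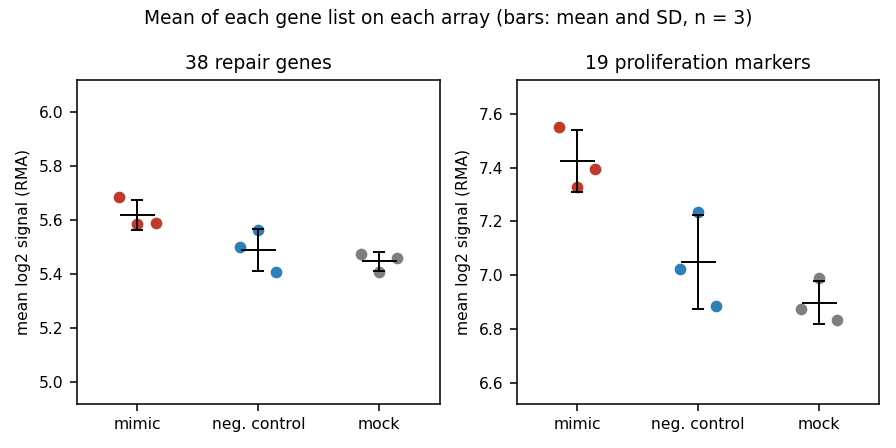
Mean log2 signal on each array of the 38 repair genes (left) and of 19 proliferation markers (right) in mimic, negative control and mock samples; points are arrays, bars are the mean and SD of 3 arrays, and both axes have the same span. The mimic arrays are highest in both panels, at 5.59 to 5.68 and at 7.33 to 7.55.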

How the data were processed

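The deposited values are log2 signals per feature, made by the authors with RMA per the submitters' processing notes, which corrects background, equalises array distributions and sums probes. Not given in the sources used here were its version and the array definition. Per the labels' protocols, 1 ug RNA of each sample carried a biotin label. The table held 53617 features, 9 arrays and 0 missing values.

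The platform annotation gave 16098 features exactly 1 symbol, for 14884 genes, and the brightest feature stood for a gene. Coordinates and sequences are RefSeq's (GRCh38.p14).

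The tests used limma 3.58.1 (lmFit, eBayes; R 4.3.3) on all 9 arrays, 1 mean per group, with 6 residual and 9.60 total degrees of freedom. P-values are two-sided, adjusted over all 14884 genes per comparison. Errors after a change are SE, those after a mean SD. The pipeline was tested on simulated data. The number of arrays limits the precision.

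The members, lists and tests were chosen with earlier results of these data known. Named were all called members, the 10 largest rises and 5 largest falls with arrays apart in each comparison, up to 4 members per role (all in roles of 5 or fewer), and called pathway genes.

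Replicate numbers were checked by the correlation of deviations from group means. Same-numbered negative control and mock arrays had r of 0.15, 0.23 and 0.15, so the numbers may pair these samples, on the values alone. For mimic arrays r with same-numbered control arrays lay between -0.29 and -0.054. With differently numbered control arrays it reached 0.24 (mimic 1 with negative control 2), so an r of this size does not establish a pairing. Alternatives were another quantile normalization, median centring, a signal filter, feature means, a variance trend, array weights, the 6 arrays compared, the replicate block, a covariate and leaving out arrays.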

Additional observations from a re-analysis of the deposited data

How the results depend on the processing

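With 3 arrays a group, the counts of changed repair genes turned on single arrays. Against the negative control 4 genes changed, and 2 did after a further quantile normalization, 1 in a fit on the 6 arrays compared, 1 with the replicate block and 1 without both control arrays numbered 2. Leaving out 1 array gave 0 to 4: 0 without mimic 1 or negative control 3, 1 without mimic 3, negative control 1 or mock 1, and 2 without mimic 2 or negative control 2. Against mock 5 changed, 2 with the replicate block and 3 without both control arrays numbered 2 (451 of all genes). At an adjusted p under 0.10 the count was 8, with 1071 of all genes called in place of 580. Leaving out 1 array gave 2 to 5 there: 2 without mimic 1 or mock 1, and 3 without mimic 3, mock 2 or mock 3. For the negative control against mock the count was 0, and 1 after a further quantile normalization, among genes of at least median signal, or at an adjusted p under 0.10, while leaving out 1 array gave 0 each time. Among the repair genes, the block changed no call of the negative control against mock. Mimic samples share only a number with the others, so a call lost under the block is not read as a weaker effect.

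EXO1 and XRCC1 against mock kept their calls in all 19 settings, with changes of 0.96 to 1.11 and 0.67 to 0.81. Over 44 changes followed, 751 of 835 values kept direction and call. Most of the 44 were not called as reported, so the kept values were largely of changes that stayed uncalled. Of the values, 61 lost a call (XRCC1 and XRCC2 against the negative control 11 each, MSH5 10 in each comparison, RAD23B against mock 10, XRCC2 against mock 6 and EXO1 against the negative control 3), 12 gained one and 11 changed sign, none of them called. Those were PARP2 and UNG against the negative control (-0.058 and -0.046 after a further quantile normalization, -0.017 to 0.12 and -0.080 to 0.16 with 1 array left out), and PARP1 against mock (-0.072 to 0.0045 with 1 array left out). In the negative control against mock, MSH5 came to -0.015 and XRCC2 to -0.0055 without both control arrays numbered 2, and MSH5 to between -0.060 and 0.13 with 1 array left out. The cause of these shifts was not tested. Of all genes 473 (mimic against negative control), 580 (mimic against mock) and 96 (negative control against mock) were called, and 251, 321 and 18 in fits on the 6 arrays, 292, 346 and 61 with the block, and 199 to 431, 188 to 650 and 21 to 112 with 1 array left out. Array weights gave 904 against mock. For the mimic against the negative control, 465 were called after a further quantile normalization and 399 without both control arrays numbered 2. For the negative control against mock, 28 were called without both control arrays numbered 2, 150 with the signal filter and 153 with the covariate. That comparison had 136 calls after a further quantile normalization and 199 at an adjusted p under 0.10.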

Other observations

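Identical deposited values on several arrays were common: 56.3% of the 14884 genes, and 18 of the 38 repair genes, had at least 2 arrays with the same value. In 16.98% of genes, and in MLH3, RAD52 and RAD54B among the repair genes, at least 4 of the 9 arrays shared a value.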
